A study of Homo sapiens with 6 samples.

Results

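MBD5, MBD6 and the subunits and partners of the polycomb repressive deubiquitinase (PR-DUB) were examined as RNAs recovered with the helicase DDX5. The set held 10 genes (MBD5, MBD6, BAP1, ASXL1, ASXL2, ASXL3, FOXK1, FOXK2, HCFC1 and KDM1B) of 20046 annotated protein-coding genes. All but ASXL3 were among the 10352 protein-coding genes with an interval in at least 1 list. The genes were taken from a list that was selected on earlier results of these same measurements. Their intervals were chosen by the measured summit position, so counts and enrichments are a description and carry no test. A deposited interval was counted for a gene where its summit lay within the gene body of GENCODE version 44 (GRCh38).

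The study profiled RNA bound by DDX5 in RH30 cells, a PAX3-FOXO1 fusion-positive line of alveolar rhabdomyosarcoma, a muscle-lineage tumour. RNA immunoprecipitation followed by sequencing (RIP-seq) was done on nuclear extracts. The labels give 2 groups, 3 DDX5_IP samples made with a DDX5 antibody and 3 INPUT samples with no antibody, all from RH30 cells with no further treatment named. Each DDX5_IP sample had 1 list of enriched intervals, and the INPUT samples were not analysed here, so no test between groups could be made. RH30 is 1 cell line, and the series calls the 3 samples biological replicates. The libraries were unstranded, so reads of a gene and of an overlapping antisense gene cannot be told apart. The extracts were bulk, so fewer cells with a transcript and less transcript per cell cannot be told apart.

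DDX5 is a DEAD-box RNA helicase that acts in transcription and RNA processing. PR-DUB removes ubiquitin from histone H2A and so opposes the polycomb ubiquitin ligase. BAP1 is its catalytic subunit, and ASXL1, ASXL2 and ASXL3 are alternative partners that activate it. MBD5 and MBD6 bind the complex through their methyl-CpG-binding domains, FOXK1 and FOXK2 are forkhead factors that bring it to DNA, HCFC1 is a chromatin cofactor, and KDM1B is a histone H3 demethylase found with it.

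The 3 lists held 23715, 23651 and 45832 intervals in replicates 1, 2 and 3. Sequencing depth was not given in the sources used here, so no depth could be set beside these values. All 6 rhabdomyosarcoma and myogenic markers (MYOD1, MYOG, DES, CDH15, PAX3 and FOXO1) had an interval in every list. None of the 4 markers of other cell types did: PTPRC, EPCAM and ALB had none, and PECAM1 had 1 interval in replicate 1 and 1 in replicate 3.

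Of the 10 genes, 9 had an interval in every list, and ASXL3 had none in any list. Among protein-coding genes with an interval in at least 1 list, 49.8% had one in every list, and of all annotated protein-coding genes 25.7% did. The same 9 genes kept an interval in every list at a q-value under 1e-05, which 29.2% of genes with an interval did. At a fold enrichment of at least 4 in every list, 3 genes remained, MBD6, FOXK1 and HCFC1, against 7.86% of genes with an interval. Since the genes were selected on these lists, nothing is read from the distance between these shares.

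The genes held 260 intervals, 67 in replicate 1, 86 in replicate 2 and 107 in replicate 3. By the feature at the summit, 142 lay in coding sequence, 66 in 3' UTRs, 44 in introns, 6 in exons of non-coding transcripts and 2 in 5' UTRs. Coding sequence took 55.2, 48.8 and 58.9% of the summits in replicates 1 to 3 (54.3 ± 5.08%, SD, n = 3), against 37.2, 28.4 and 49.6% over all protein-coding genes (38.4 ± 10.7%). With HCFC1 included, the share was higher in the listed genes in each of the 3 lists. HCFC1 alone held 57 of the 142 coding summits. They were 17 of its 21, 18 of its 21 and 22 of its 24 summits in replicates 1 to 3. The share without HCFC1 was not computed, so the difference is not shown for the other listed genes. Introns took 16.6 ± 7.13% in the listed genes, against 25.1 ± 10.8% over all protein-coding genes. Of the 44 intronic intervals, 14 lay in MBD5, 16 in the stretch of FOXK2 that overlaps WDR45B, and 4 elsewhere in FOXK2, which left 10 for the other genes.

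**Figure D1:**
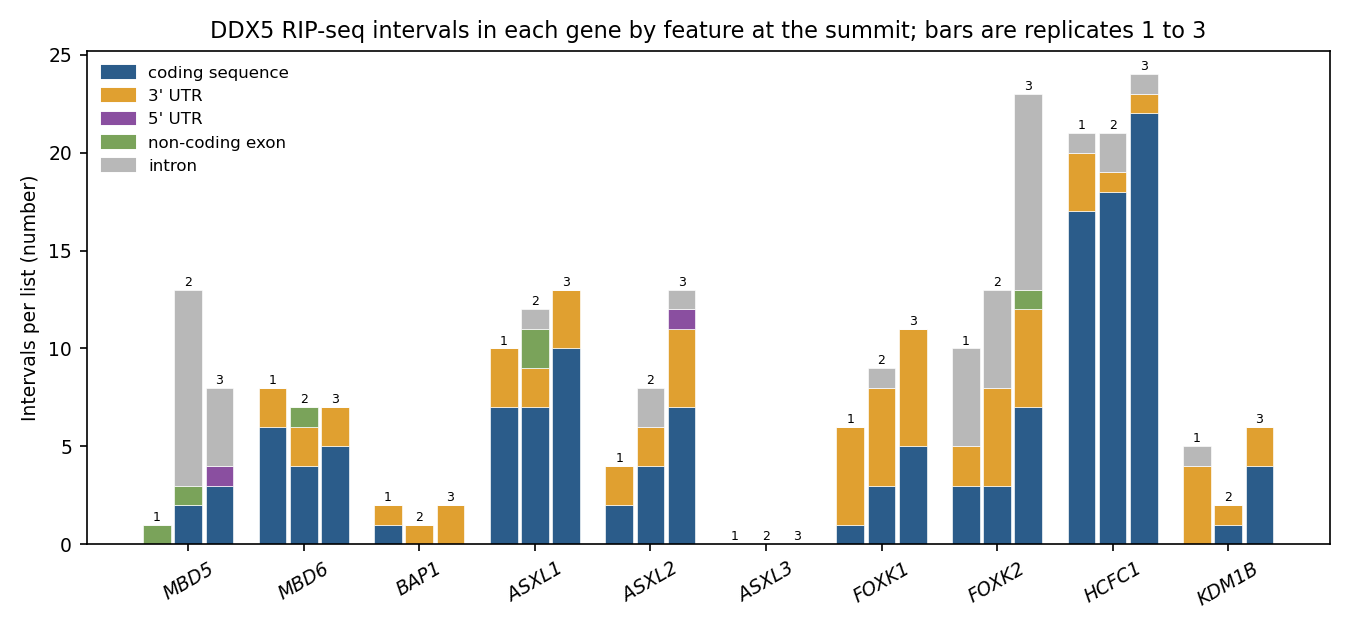
Number of intervals (y axis) in each gene (x axis), with 1 bar for each of replicates 1 to 3, coloured by the feature at the summit. HCFC1 had 21, 21 and 24 intervals, mostly in coding sequence, MBD5 had 1, 13 and 8, mostly in introns, and ASXL3 had none.

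Merging intervals that overlapped by at least 1 base gave 129 regions in these genes. Of these, 42 (32.6%) held intervals of all 3 lists, against 13.6% of all 60437 merged regions, those outside genes included. A further 24 held 2 lists and 63 held 1. HCFC1 had 16 of the 42 shared regions, ASXL1 7, and MBD6, FOXK1 and FOXK2 5 each. ASXL2 had 2, BAP1 and KDM1B 1 each, and MBD5 none. Of the 42 shared regions, 22 had every summit in coding sequence, 13 in a 3' UTR and 1 in an intron, and 6 mixed features. The intronic region lay in the stretch of FOXK2 that overlaps WDR45B, with every summit in the 3' UTR of WDR45B. The closest summits of the 3 lists lay a median of 42 bases apart, against 75 bases over all shared regions.

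The fold enrichment is the authors' ratio for a peak over the caller's background. The best interval of a gene was taken in each list by its −log10 q, and it had a mean fold enrichment over the 3 lists whose median was 4.92 in the 9 genes. Over all 5155 genes with an interval in every list the median was 3.65 (quartiles 3.03 and 4.49). In descending order of this mean the genes were MBD6, FOXK1, HCFC1, KDM1B, MBD5, BAP1, ASXL1, FOXK2 and ASXL2. Neighbours in this order differed by less than the larger of their SDs, except ASXL1 and FOXK2, which differed by 1.19 with a larger SD of 1.08. That step depends on how the best interval is picked. By highest fold enrichment, FOXK2 (mean 5.21) stood above ASXL1 (4.48). The best interval of a gene could lie at a different place in each list, so its SD also holds differences between places. Only in MBD6 and ASXL1 did the best intervals of all 3 lists fall in the same merged region.

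**Figure D2:**
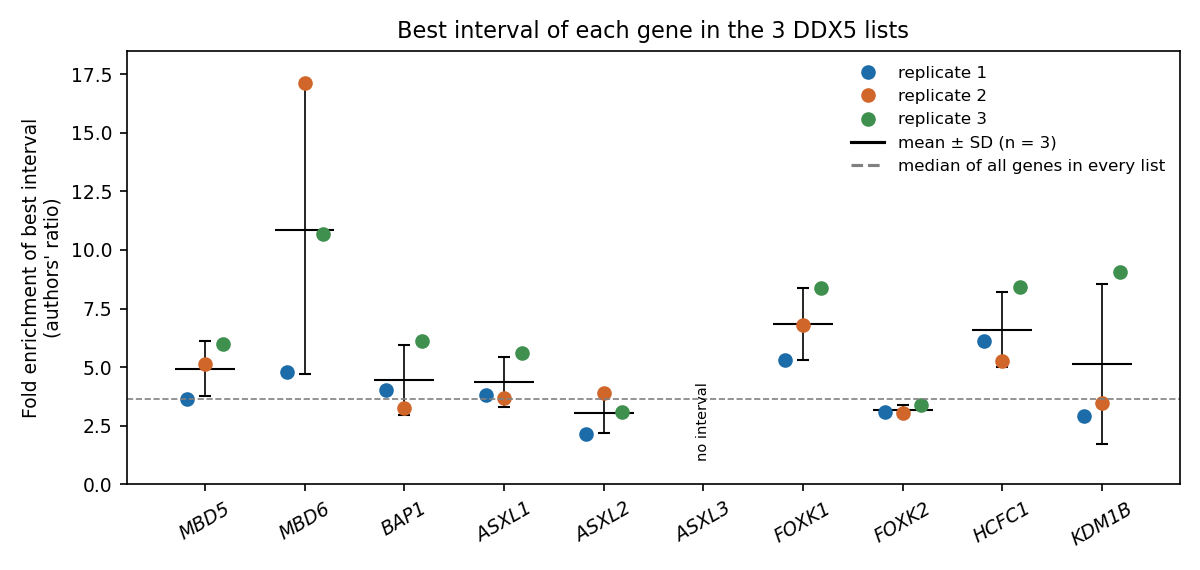
Fold enrichment of the best interval (y axis, authors' ratio) of each gene (x axis) in replicates 1 to 3 (points), with the mean and SD (n = 3). MBD6 had the highest mean and the widest spread, with 4.79 in replicate 1 and 17.1 in replicate 2, and the dashed line marks the median of 3.65 over all genes in every list.

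MBD6 (ENSG00000166987.15, chr12:57520710-57530148, plus strand) had the highest mean fold enrichment of the set at its best interval, though HCFC1 and FOXK1 stood above it in replicate 1. Its best interval had fold enrichments of 4.79, 17.1 and 10.7 in replicates 1, 2 and 3 (10.9 ± 6.17, SD, n = 3). Replicate 2 was highest and replicate 1 lowest, and without replicate 2 the mean was 7.73. The −log10 q of these intervals was 38.4, 124 and 78.3, and the replicate 2 value was the highest of the 7166 genes in that list. In replicate 1 another MBD6 interval had a lower −log10 q (32.5) but a higher fold enrichment, 5.34, just above the FOXK1 value of 5.32.

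MBD6 had 8, 7 and 7 intervals, which merged into 6 regions. Of these, 5 were found in every list and 1 in replicates 2 and 3. None of its summits lay in an intron: 15 lay in coding sequence, 6 in the 3' UTR and 1 in an exon of a non-coding transcript. Its intervals covered 72.6, 81.98 and 90.5% of the spliced canonical transcript of 4202 bases (81.7 ± 8.95%), against medians of 10.8, 9.79 and 17.6% over all genes in each list. Every list covered the same 72.6% of the transcript. The widest interval, in replicate 2, spanned 2432 bases of the gene, so the summit and not the interval marks its strongest point. Across the shared regions the order of the lists was not the same. Near the start of the coding sequence, in exon 3, fold enrichments were 3.46, 6.94 and 9.76, and in exon 10 they were 4.00, 6.63 and 7.76. Both were highest in replicate 3, while the exon 6 interval was highest in replicate 2. At the end of the 3' UTR they were 2.88, 3.31 and 4.08. These were the lowest of the 5 shared regions in every list, by the interval with the highest −log10 q of each region. Other intervals of the shared regions could be lower, as in exon 12 in replicate 1 (2.75). In replicate 1, 1 summit in the last exon also lay in DCTN2 on the opposite strand.

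The sequences below are read from the GRCh38 genome on the strand of the gene, 5′ to 3′, and capitals mark the bases from the lowest to the highest summit of the 3 lists. They show where the summits of MBD6 met most closely, in the coding sequence of exon 10 (chr12:57528414-57528514) and in the 3' UTR of exon 13 (chr12:57529239-57529267).
MBD6 exon 10: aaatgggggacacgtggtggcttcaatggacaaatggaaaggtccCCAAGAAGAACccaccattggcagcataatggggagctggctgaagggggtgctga
MBD6 3' UTR: catacctggagCTGGATCTgaccctgatt
The exon 10 summits lay 10 bases apart and the 3' UTR summits 7 bases apart. Around the summit with the highest −log10 q, in exon 6 (chr12:57525506-57525606, capital at the summit), GC content was 68.3%.
MBD6 exon 6: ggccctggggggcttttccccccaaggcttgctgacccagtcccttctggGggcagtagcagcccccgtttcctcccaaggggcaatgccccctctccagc

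MBD5 (ENSG00000204406.14, chr2:148021011-148516971, plus strand), the relative of MBD6, differed from it in replicate support and position. It had 1, 13 and 8 intervals, and none of its 20 regions was found in every list. The best MBD5 interval had fold enrichments of 3.66, 5.13 and 5.98 (4.92 ± 1.17, SD, n = 3), at a different place in each list. Of the 22 intervals, 16 lay before the first coding base, which is 437748 bases from the start of the gene, and 12 lay in the first 100 kb. Introns held 14 of the 22, coding sequence 5, exons of non-coding transcripts 2 and the 5' UTR 1. The intervals covered 2.81 ± 3.19% of the spliced transcript. All 22 carried a pair of fold enrichment and p-value shared by at least 10 intervals of their list, against none of the 22 MBD6 intervals. Such pairs made up 60.01 ± 9.36% of the intervals of the listed genes and 59.8 ± 7.21% over all protein-coding genes. What these repeated values stand for was not tested.

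**Figure D3:**
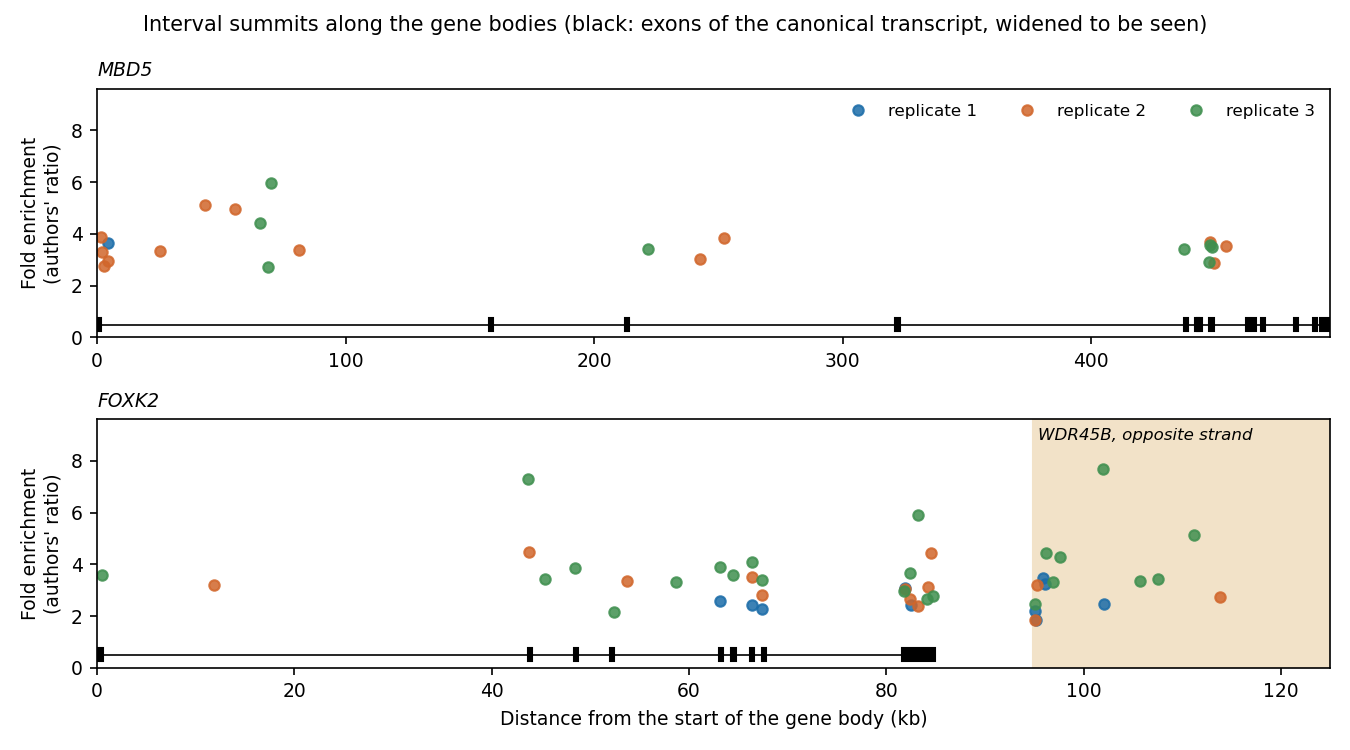
Fold enrichment of each interval (y axis, authors' ratio) against the distance of its summit from the start of the gene body in kb (x axis) for MBD5 and FOXK2, coloured by replicate. MBD5 summits gathered in the first 100 kb and near the coding exons, and 16 of the FOXK2 summits lay in the shaded stretch shared with WDR45B on the opposite strand.

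BAP1 (ENSG00000163930.10, chr3:52401008-52410008, minus strand), the deubiquitinase itself, had 2, 1 and 2 intervals. The fold enrichments of its best interval were 4.02, 3.24 and 6.14 (4.46 ± 1.4998, SD, n = 3). All 5 summits lay in the last exon, exon 17, 1 of them in sequence that another BAP1 transcript codes. Of its 2 regions, 1 was found in every list, in the 3' UTR. In the canonical transcript the first 2291 of 3600 bases were in no interval, and the intervals reached 1.19% of the coding sequence in replicate 3 and none of it in replicates 1 and 2. The 3' UTR was covered over 52.5, 31.6 and 58.5%.

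Of the ASXL partners, ASXL1 was covered most widely, ASXL2 in part and ASXL3 not at all. ASXL1 (ENSG00000171456.22, chr20:32358330-32439319, plus strand) had 10, 12 and 13 intervals, and 7 of its 11 regions were found in every list. For the best ASXL1 interval the fold enrichments were 3.82, 3.68 and 5.61 (4.37 ± 1.08, SD, n = 3). Coding sequence held 24 of its 35 summits, and the intervals covered 52.0 ± 13.9% of the spliced transcript. The last exon, which holds most of the coding sequence, had 6 summits in each list.

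ASXL2 (ENSG00000143970.18, chr2:25733753-25878487, minus strand) had 4, 8 and 13 intervals. Fold enrichments of its best interval were 2.16, 3.88 and 3.07 (3.04 ± 0.864, SD, n = 3), the lowest mean of the 9 genes. Only 2 of its 18 regions were found in every list, 1 in coding sequence and 1 in the 3' UTR. The last 4369 bases of its 3' UTR of 8279 bases were in no interval. ASXL3 (ENSG00000141431.14, chr18:33578219-33751195, plus strand) had no interval, which does not show whether it is transcribed in these cells.

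Among shared regions with every summit in coding sequence, the summits met most closely in exon 12 of ASXL1 (chr20:32433689-32433789) and exon 13 of ASXL2 (chr2:25743534-25743634).
ASXL1 exon 12: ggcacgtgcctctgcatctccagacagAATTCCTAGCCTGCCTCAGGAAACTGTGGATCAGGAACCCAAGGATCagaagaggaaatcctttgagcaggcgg
ASXL2 exon 13: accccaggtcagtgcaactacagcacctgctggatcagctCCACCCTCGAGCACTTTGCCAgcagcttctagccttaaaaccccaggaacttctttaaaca

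FOXK1 (ENSG00000164916.11, chr7:4682295-4771442, plus strand) had 6, 9 and 11 intervals. Its best interval had fold enrichments of 5.32, 6.80 and 8.38 (6.83 ± 1.53, SD, n = 3), each in the 3' UTR. The replicate 2 interval lay in another region than those of replicates 1 and 3. Of its 26 summits, 16 lay in the 3' UTR of 8981 bases and 9 in coding sequence. Of its 11 regions, 5 were found in every list, 4 in the 3' UTR and 1 in exon 4, which encodes part of the DNA-binding forkhead domain. The exon 4 summits lay 11 bases apart (chr7:4755237-4755337).
FOXK1 exon 4: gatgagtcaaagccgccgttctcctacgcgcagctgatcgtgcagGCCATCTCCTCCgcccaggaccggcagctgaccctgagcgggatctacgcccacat

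FOXK2 (ENSG00000141568.21, chr17:82519713-82644662, plus strand) had 10, 13 and 23 intervals, but 16 of these 46 lay beyond the end of its canonical transcript, inside WDR45B on the opposite strand. At WDR45B, 8 of the 16 summits were in coding sequence, 7 in the 3' UTR and 1 in an intron. The unstranded reads do not assign them to either gene. The other 30 intervals, 5, 10 and 15 in replicates 1 to 3, lay within the canonical span. The best interval had fold enrichments of 3.10, 3.03 and 3.40 (3.18 ± 0.196, SD, n = 3), the narrowest spread of the set. Taking the interval with the highest fold enrichment in place of the highest −log10 q moved the mean to 5.21 and the SD to 2.21. The replicate 1 and 3 values then came from the stretch shared with WDR45B. Within the canonical span the highest fold enrichments were 3.10, 4.49 and 7.28. The shared summits met within 7 bases in exon 8 (chr17:82587103-82587203) and within 24 bases in the 3' UTR (chr17:82601539-82601567).
FOXK2 exon 8: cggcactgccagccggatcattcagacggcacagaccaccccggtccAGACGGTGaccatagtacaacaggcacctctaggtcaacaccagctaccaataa
FOXK2 3' UTR: gtGCCAAAAGGAGACGCGGCCTCCCGCca

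HCFC1 (ENSG00000172534.14, chrX:153947557-153971818, minus strand) had the most intervals, 21, 21 and 24. At its best interval of each list the fold enrichments were 6.14, 5.28 and 8.40 (6.61 ± 1.61, SD, n = 3). These lay at different places, in exon 17, the 3' UTR and exon 24. Coding sequence held 57 of its 66 summits. Of its 26 exons, 22 held a summit in at least 1 list and 13 in every list. The intervals covered 57.5 ± 13.96% of the spliced transcript, and 16 of its 25 regions were found in every list. In exon 17, the long exon in the middle of the coding sequence, intervals of the 3 lists with summits 5 bases apart had fold enrichments of 4.66, 2.81 and 9.74. Another shared region of that exon had 6.14, 4.49 and 6.96 at the interval with the highest −log10 q of each list. In the 3' UTR the last shared region had 2.41, 5.28 and 4.36. No list was highest in all 3 of these regions. The closest summits lay 2 bases apart in exon 2 (chrX:153964592-153964692), which encodes part of the Kelch repeats.
HCFC1 exon 2: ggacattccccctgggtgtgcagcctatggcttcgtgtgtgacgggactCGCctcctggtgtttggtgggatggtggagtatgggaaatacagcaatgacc

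KDM1B (ENSG00000165097.16, chr6:18155329-18223854, plus strand) had 5, 2 and 6 intervals, and 1 of its 10 regions was found in every list, in the 3' UTR. Its best interval had fold enrichments of 2.90, 3.45 and 9.05 (5.14 ± 3.40, SD, n = 3). Replicate 3 stood above the other lists, and without it the mean was 3.18. The replicate 3 value came from exon 9, which had a summit in that list alone.

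**Figure D4:**
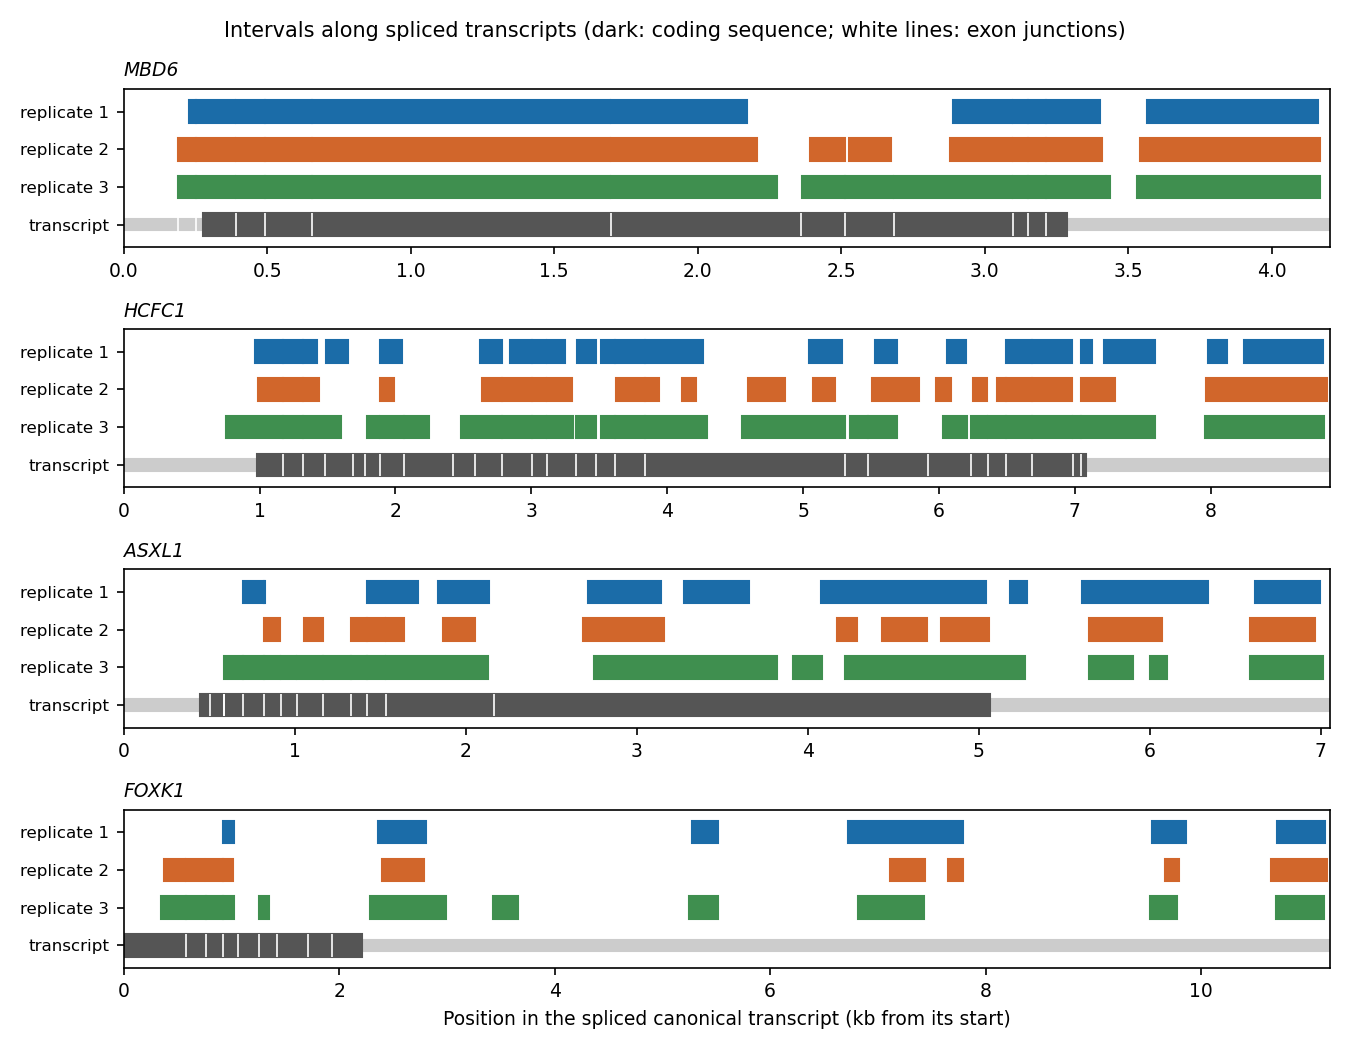
Intervals of replicates 1 to 3 (coloured bars) along the spliced canonical transcripts of MBD6, HCFC1, ASXL1 and FOXK1, in kb from the transcript start (x axis), above the coding sequence (dark) and UTRs (light). MBD6 was covered over most of its length in all 3 lists, and FOXK1 intervals were spread over a long 3' UTR.

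GC content in the 101-base windows around exonic summits was 54.7 ± 0.229% in the listed genes, against 48.6 ± 0.218% over all exonic summits (SD, n = 3 lists). Over all windows, introns included, GC content was 52.7 ± 1.57% in the listed genes. By gene this mean ran from 34.7 ± 2.57% in MBD5 to 60.9 ± 2.30% in FOXK1. MBD6 windows averaged 59.3 ± 0.214%, and its spliced transcript 62.2%. The mean over all windows also lay below the gene's own spliced transcript in MBD5, BAP1, ASXL1, FOXK2 and HCFC1. It lay above it in ASXL2, FOXK1 and KDM1B. These means include intronic windows, and exonic windows were not set against the transcripts. Whether the higher GC content is particular to the summits was not tested. A pattern of 4 runs of GGG or longer, spaced by 1 to 7 bases and searched on both strands, was found in 2.13 ± 1.40% of the windows, against 1.55 ± 0.162% over all protein-coding genes. It lay in 6 windows in all, 3 in MBD6, 2 in HCFC1 and 1 in FOXK1. Windows were counted in each list, and 2 of the MBD6 windows overlapped, as did the 2 in HCFC1. A match describes the letters and is no evidence of a site.

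**Figure D5:**
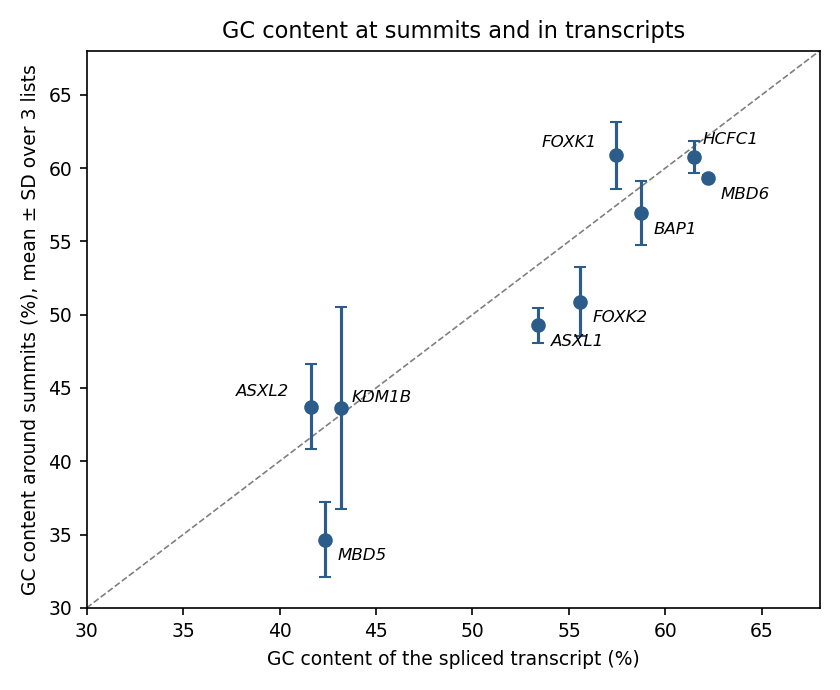
Mean GC content of the windows around summits (y axis, %, mean and SD over 3 lists) against GC content of the spliced transcript (x axis, %) for 9 genes, with a dashed line of equality. MBD5, with 14 of 22 summits in introns, lay furthest below the line, at 34.7% around summits against 42.4% in its spliced transcript and 36.3% in its gene body.

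Genes related to the set were counted in the same way, beside the 49.8% of protein-coding genes with an interval that had one in every list. Of 9 other MBD-domain genes, 5 had an interval in every list, a share of 55.6% and near that background. Ranked by −log10 q, the leading ones included BAZ2A and MBD3, whose best intervals averaged 6.15 and 6.02 in fold enrichment. Of 11 genes of the H2A ubiquitin ligases and other H2A deubiquitinases, 3 did, PCGF2, RING1 and PCGF5. Of 10 partners and relatives, 9 did, all but UCHL5. Among them GLYR1, a nucleosome-binding partner of KDM1B, had the highest mean, 5.76. The median of the 9 was 3.57, near the 3.65 over all genes with an interval in every list.

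By the distance of log2 best fold enrichments over the 3 lists, the genes most like MBD6 were CRMP1 (0.49), NECTIN1 (0.62) and EVC (0.63). CRMP1 and EVC had the same values of 13.3 and 12.2 in replicates 2 and 3, from shared intervals. Within 100 kb of MBD6 lay 15 other protein-coding genes, 11 with an interval in every list, beside 25.7% of all annotated protein-coding genes. The 11 were not all separate, since overlapping genes can count the same interval. ARHGAP9 and MARS1 had the same values in every list, and ENSG00000287908 and B4GALNT1 in replicates 1 and 2. The replicate 1 value of DCTN2 came from an MBD6 interval. The mean best fold enrichments of these 11 ran from 1.74 in DDIT3 to 5.57 in GLI1, all below the MBD6 mean of 10.9. In replicate 1 alone, PIP4K2C (5.75) and DTX3 (5.09) stood above the best MBD6 interval by −log10 q (4.79). The highest MBD6 fold enrichment in that list was 5.34, above the DTX3 value.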

How the data were processed

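RIP-seq of DDX5 was measured in nuclear extracts of RH30 cells. Per the submitters' processing notes, reads were handled with STAR 2.6.1d, cutadapt 1.11, bcl2fastq 2.20 and FastQC 0.11.8, and MACS2 2.2.7.1 and SAMtools 1.10 are also named, with GRCh38/hg38. The control and parameters of the peak calls are not given in the sources used here. The authors deposited 1 peak list for each DDX5_IP sample, with a fold enrichment (a ratio), a −log10 p-value, a −log10 q-value, a score and a summit offset for each peak. The deposited score was not used. The 3 INPUT samples were not analysed here.

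Intervals with several summits were counted once, at the summit with the highest −log10 q. Features were taken from GENCODE version 44 with coding sequence ranked first, then the 5' and 3' UTRs, then other exons, and introns last. Windows reached 50 bases to each side of a summit. All 10 listed genes were named, with the 3 genes nearest to MBD6 and up to 4 genes of each related list, by rank of −log10 q. The values of 1 gene of a related list are not reported here. The members and lists were chosen with earlier results of these data known. Scripts ran in Python 3.11.15 with pandas 2.3.3 and numpy 2.4.6 and were tested on simulated data. No test between groups was made, and SDs describe the spread over 3 lists. Alternatives changed the threshold, list length, gene assignment, overlap, window, transcript model and lists used.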

Additional observations from a re-analysis of the deposited data

How the results depend on the processing

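GC values here are over all windows, 52.7% as reported. The 9 genes had an interval in every list at a q-value under 1e-05 and at equal list lengths. Leaving out a replicate could not change this count, since ASXL3 had no interval in any list. At a fold enrichment of at least 4, 3 genes remained, with 77 intervals, 7 shared regions, 69.8% of summits in coding sequence and 59.7% GC. At a q-value under 1e-05 there were 164 intervals, 59.96% in coding sequence and 55.4% GC. Counting every summit gave 391, and a reciprocal overlap of 50% left 21 shared regions. Without intervals whose fold enrichment and p-value pair was shared by 10 or more, an alternative chosen after seeing the data, 101 intervals and 19 shared regions remained, and 7 genes, without MBD5 and BAP1. Leaving out 1 replicate gave 153 to 193 intervals, the lowest without replicate 3, and 45 to 55 shared regions, with 52.0 to 57.1% in coding sequence and 51.9 to 53.5% GC. Of 36 alternative values of the best fold enrichment, 35 moved by less than 1 SD, and FOXK2 moved to 5.21. Leaving out 1 of 3 values cannot move their mean by 1 SD, so for most of the 36 this was fixed beforehand. Only taking the highest fold enrichment could move a mean that far, and FOXK2 moved there. No paired analysis was possible because the INPUT samples were not analysed here and no result came from a test. Depth and the control of the peak calls are unknown, and whether enrichment follows RNA abundance was not tested.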
